A study of Mus musculus with 32 samples.

Results

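The comparison described here rests on 8 core libraries, 4 of KO core // fibroblasts and 4 of KO core // cell-free, out of 32 RNA-seq libraries in the series. They were chosen by their labels alone. The assembloid is a culture in which a tail tendon core explant, the load-bearing part of the tendon, is clamped inside a collagen-1 hydrogel that stands for the loose tissue around it. In KO core // fibroblasts, the hydrogel was seeded with fibroblasts from the Achilles tendons of Il-6+/+ mice, which the sample titles call progenitors, and in KO core // cell-free it held no seeded cells. All 8 cores were labelled B6.129S2-Il6tm1Kopf/J Il-6-/- (homozygous), came from adult mice and were sequenced at day 7. Per the study's methods, each core library pooled explants of 1 mouse, while the seeded fibroblasts were a mixture of cells from several mice. The comparison asks what the presence of fibroblasts around the core changes in the transcripts of a core whose mouse should not make IL-6. Counts were compared over 15965 genes after a filter on low counts, and log2 fold changes are fibroblasts over cell-free.

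A pair of gene programmes comes up repeatedly below. When oxygen is short, the prolyl hydroxylases that mark the α subunits of hypoxia-inducible factor (HIF) for degradation slow down, HIF accumulates and binds a short core sequence near its targets, and genes for glucose uptake, glycolysis, acid export and vessel growth are switched on. The hydroxylase genes Egln1 and Egln3 are themselves among these targets, so that the response limits itself. Interferons, the antiviral cytokines, act through STAT proteins and interferon regulatory factors to switch on guanylate-binding proteins, immunity-related GTPases and other antiviral genes, many of them through an interferon-stimulated response element. Tendon cores are sparsely vascularised, and besides tenocytes they hold resident macrophages and some endothelial, nerve-associated and muscle cells.

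Il6 (ENSMUSG00000025746), the gene targeted in the mice, was counted in all 8 libraries. Its level was 10.5, 15.2, 16.6 and 36.7 CPM (counts per 1 M of the library's counts, scaled by TMM) in replicates 1 to 4 of KO core // fibroblasts, against 7.07, 8.32, 6.38 and 20.2 CPM in KO core // cell-free. The groups overlapped through cell-free replicate 4. The means were 19.7 ± 11.6 CPM and 10.5 ± 6.51 CPM (SD, n = 4 each), with a log2 fold change of 0.91 (SE 0.45). The two-sided exact permutation test of Il6, which left out the replicate number, had a p of 0.143. With 4 against 4 libraries it cannot go below 0.0286. The adjusted p from edgeR was 0.477, but 0.0191 with the replicate number as a block, and 0.0191 to 0.807 over all alternatives. WT cores had 6.11, 11.8, 5.00 and 9.28 CPM beside fibroblasts and 6.95, 1.84, 11.2 and 3.86 CPM beside a cell-free hydrogel (exact permutation test, two-sided, p = 0.371), and KO cell-free against WT cell-free cores gave p = 0.229 (exact permutation test, two-sided). A count of the whole gene does not show from which exons the reads came. Whether the labels hold cannot be read from these counts, so the libraries are called cores labelled KO throughout.

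**Figure D1:**
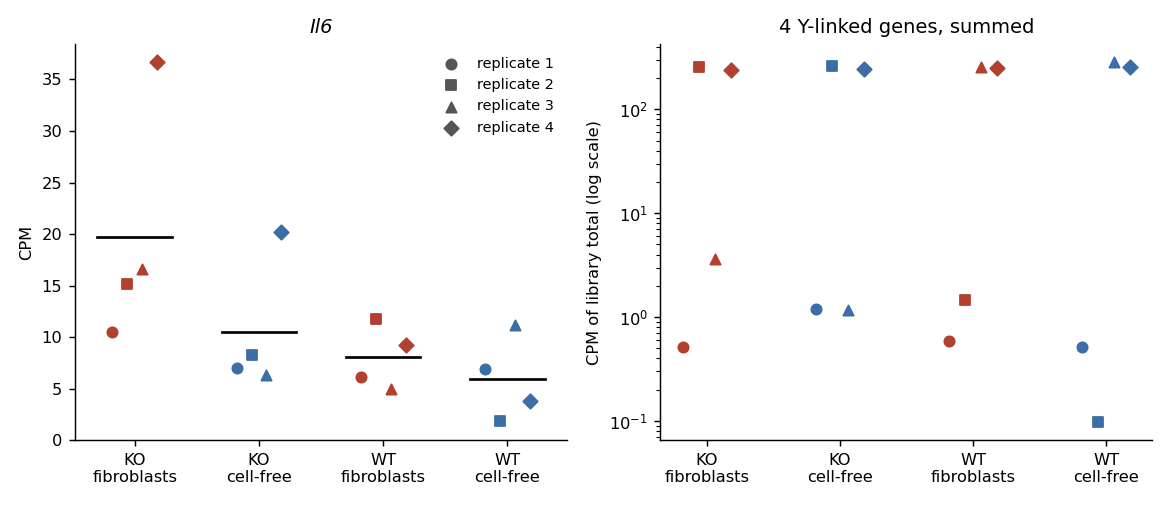
Il6 in CPM (left, linear axis from 0, bars for means) and the summed level of 4 Y-linked genes (right, log axis) in each core library, with fibroblasts and cell-free groups side by side for cores labelled KO and WT. In cores labelled KO, Il6 lay between 10.5 and 36.7 CPM with fibroblasts and between 6.38 and 20.2 CPM without, and replicates 1 and 3 of both groups were low for the Y-linked genes.

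Total counts were 22 to 34.8 M per library in KO core // fibroblasts and 21.4 to 41.9 M in KO core // cell-free. Cell-free replicate 1 stood apart on the first principal component, which held 37.1% of the variance, at 56.9 against -24.0 to 25.3 for the other 7 libraries. Summed macrophage markers (group means over 1 CPM in 7 of 7) ranged from 6850 to 8550 CPM with fibroblasts and from 5220 to 17600 CPM without. Tenocyte markers (5 of 5) ranged from 12300 to 26200 CPM and from 10000 to 17300 CPM, so markers of both cell types were present. The 3 lymphocyte markers Cd3e, Cd79a and Ms4a1 and the 3 adipocyte markers Adipoq, Plin1 and Cidec each had group means under 1 CPM, with sums of up to 1.17 CPM and 3.7 CPM in single libraries. Of 5 endothelial markers 3 had group means under 1 CPM. In bulk samples, fewer cells of a type and less RNA per cell cannot be told apart. The 4 Y-linked genes Ddx3y, Eif2s3y, Kdm5d and Uty summed to 0.517, 255, 3.62 and 237 CPM of the library total in replicates 1 to 4 with fibroblasts and to 1.19, 263, 1.16 and 244 CPM without, a female pattern in replicates 1 and 3 and a male pattern in replicates 2 and 4 of both groups. In the 6 hydrogels around cores labelled KO the same sum was 15.8 to 174 CPM.

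In all, 48 genes rose and 21 fell in cores labelled KO with fibroblasts at an adjusted p under 0.05 (edgeR) and a log2 fold change beyond 0.5, which is 0.301% and 0.132% of the genes tested. Among the increased genes of low p were Nr4a2, which encodes an orphan nuclear receptor and had the lowest p of all, Igfbp3, which binds insulin-like growth factors, and the magnesium channel gene Trpm6. Genes of low oxygen and sugar metabolism followed, among them Pdk1, Pfkl, Car9 and Slc16a3. Among the decreased genes were Pamr1, a secreted protease-like protein of regenerating muscle, Myoc, which encodes the extracellular protein myocilin, the chemokines Cxcl13, Cxcl9 and Ccl20, and the interferon-inducible GTPases Gbp7, Gbp3 and Tgtp2. All 69 genes lay fully apart between the groups, and over all genes tested 3.89% did so upwards and 2.39% downwards. Because the 69 were picked by low p from these same values, their separation is no separate evidence.

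Samples of the same number are pairs here. With that number as a block, 223 genes rose (1.4%) and 185 fell (1.16%), and all 48 and all 21 genes remained among them. Without a block the counts leaned on single libraries. They were 14 higher and 2 lower without fibroblasts replicate 1, 11 and 2 without replicate 2, 79 and 36 without replicate 3, and 7 and 1 without replicate 4. Without cell-free replicate 1, the library that stood apart, 32 were higher and 13 lower, of which 24 and 8 belonged to the 69. Without cell-free replicate 2 the counts were 219 and 278, without replicate 3 they were 3 and 1, and without replicate 4 they were 6 and 1. With all 5 core groups in 1 fit, 48 and 17 of the 69 remained, and Ogn, Gria1, Ccl20 and Acta2 no longer passed (edgeR adjusted p of up to 0.202, in Ogn). The groups added in that fit were WT core // fibroblasts, WT core // cell-free and WT core // macrophages. No named gene among the 69 changed direction in any of these fits.

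**Figure D2:**
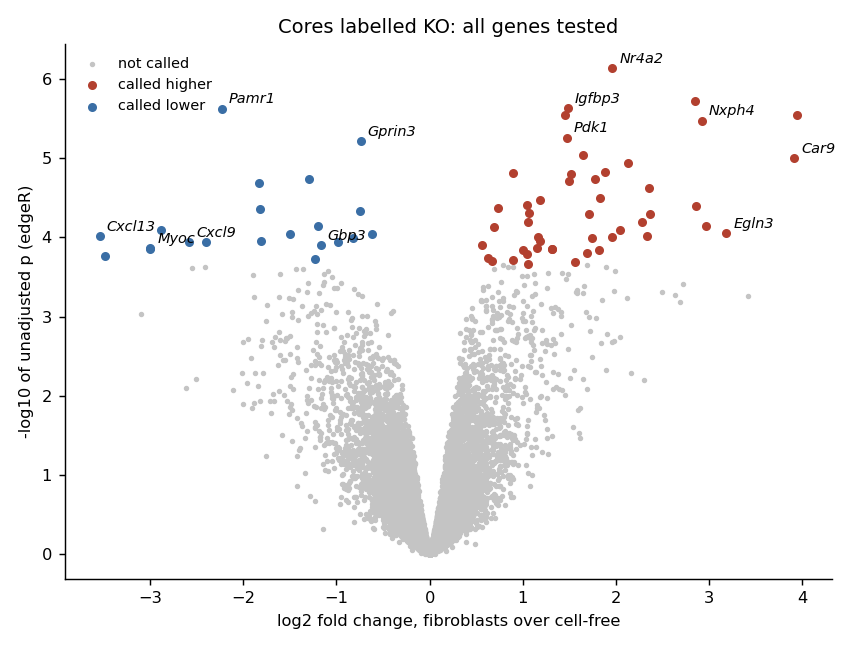
Log2 fold change (x axis, fibroblasts over cell-free) against -log10 of the unadjusted p from edgeR (y axis) for the 15965 genes tested in cores labelled KO. Red points are the 48 genes called higher and blue points the 21 called lower, with Nr4a2 at the top and Car9 and Cxcl13 near the right and left ends.

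The hypoxia response list was the group with the most increased members. Of its 30 tested genes 29 had a positive fold change, 10 rose, none fell and the median log2 fold change was 1.05, beside -0.02 over all genes tested. In 17 of the 30 the groups did not overlap, beside 3.89% of all genes tested upwards. The replicate block gave 20 increased members, beside 1.4% of all genes tested. Leaving out 1 library at a time gave 0 to 17 with a median of 0.91 to 1.17. The median log2 CPM of the list was 6.11, 6.44, 5.64 and 6.41 in replicates 1 to 4 with fibroblasts, against 5.02, 4.98, 4.97 and 5.01 without, and the cell-free cores were nearly level. Within the replicate numbers, which also separate the run codes of the titles, the differences were 1.09, 1.46, 0.67 and 1.40.

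Car9 (ENSMUSG00000028463), the membrane carbonic anhydrase that acidifies the cell's surroundings, had 41.8, 80.4, 14.7 and 70.3 CPM with fibroblasts, against 3.92, 4.46, 2.79 and 2.49 CPM in cell-free cores. Replicate 3 was the lowest of the fibroblast group and still several times above every cell-free core. The log2 fold change was 3.91 (SE 0.48, edgeR adjusted p = 0.0146). Pdk1, the kinase that keeps pyruvate out of the mitochondrial pyruvate dehydrogenase reaction, had 131, 140, 79.7 and 121 CPM against 51.5, 41.9, 39.1 and 37.2 CPM, a log2 fold change of 1.47 (SE 0.17, edgeR adjusted p = 0.0109). P4ha2, a catalytic subunit of the collagen prolyl 4-hydroxylase, had 63.6, 86.3, 34.1 and 69.3 CPM with fibroblasts and 19.2, 18.0, 17.6 and 13.8 CPM without (log2 fold change 1.88, SE 0.24, edgeR adjusted p = 0.017). As in Car9, replicate 3 was the lowest of the fibroblast group in both genes. Bnip3, which directs mitochondria to autophagy, was at 88.8, 110, 50.9 and 89.8 CPM against 32.9, 25.9, 20.3 and 20 CPM (log2 fold change 1.77, SE 0.23), and Ddit4, an inhibitor of mTORC1, at 46.6, 44.8, 16.1 and 35.0 CPM against 8.97, 7.87, 4.71 and 6.13 CPM (2.35, SE 0.32).

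The promoters of 3 of these genes are shown because they hold the core of the HIF binding sequence close to the start of transcription. Each window runs 5′ to 3′ from 250 bases before to 50 bases after the start, from RefSeq on GRCm38.p6, and capitals mark ACGTG or GCGTG on either strand (CACGT or CACGC when read on the strand shown).
Pdk1 (chr2:71872974-71873273, plus strand): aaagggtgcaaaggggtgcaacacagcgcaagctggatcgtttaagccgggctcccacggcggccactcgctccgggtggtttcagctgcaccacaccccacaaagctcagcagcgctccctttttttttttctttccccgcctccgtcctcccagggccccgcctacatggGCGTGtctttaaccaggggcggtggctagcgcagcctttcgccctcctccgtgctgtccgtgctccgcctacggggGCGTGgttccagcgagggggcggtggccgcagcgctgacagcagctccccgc
Car9 (chr4:43506776-43507075, plus strand): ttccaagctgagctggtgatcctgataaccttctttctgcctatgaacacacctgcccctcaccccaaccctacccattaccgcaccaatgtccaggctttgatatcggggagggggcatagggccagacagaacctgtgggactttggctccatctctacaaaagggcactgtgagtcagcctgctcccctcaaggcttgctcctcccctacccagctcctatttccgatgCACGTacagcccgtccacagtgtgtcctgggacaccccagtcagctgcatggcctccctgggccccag
P4ha2 (chr11:54100674-54100973, plus strand): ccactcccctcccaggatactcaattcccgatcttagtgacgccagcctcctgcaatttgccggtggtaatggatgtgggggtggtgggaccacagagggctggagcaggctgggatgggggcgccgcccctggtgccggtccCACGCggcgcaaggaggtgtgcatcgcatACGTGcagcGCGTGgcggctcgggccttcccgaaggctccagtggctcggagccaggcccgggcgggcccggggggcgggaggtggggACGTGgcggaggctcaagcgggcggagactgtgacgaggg
Among the 48 increased genes, 38 had a promoter in the table and 29 of these (76.3%) held such a match, against 61.0% of the 11186 genes tested with a promoter. In the hypoxia list 20 of 23 did (87.0%), including all 9 of the 10 increased members with an entry. The motif is short and frequent, and a match is a description of the sequence only.

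The other 5 increased members of the list were picked out for description after their values were seen. Egln3, one of the oxygen-sensing hydroxylases, had 9.66, 16, 3.42 and 7.40 CPM with fibroblasts, against 0.666, 1.89, 0.688 and 0.787 CPM in cell-free cores (log2 fold change 3.18, SE 0.51). Egln1, the main hydroxylase, rose by 1.06 (SE 0.16), with 49.1 to 86.5 CPM against 29.0 to 35.8 CPM. Pfkfb3, whose product drives phosphofructokinase, rose by 1.07 (SE 0.16), the transcriptional repressor gene Bhlhe40 by 1.31 (SE 0.22) and the glucose transporter gene Slc2a1 by 1.00 (SE 0.17). Hif1a itself was at 552, 663, 539 and 610 CPM against 350, 390, 336 and 386 CPM, with a log2 fold change of 0.69 and an adjusted p of 0.0514 in edgeR. It passed with the replicate block (edgeR adjusted p = 0.0246). Vegfa, the vascular growth factor, was at 146, 226, 106 and 123 CPM against 31.5, 75.0, 34.8 and 22.4 CPM (log2 fold change 1.85, adjusted p 0.072 without and 0.00168 with the block, edgeR). The lowest values of the list were Pfkfb4 at -0.22 and Mxi1 at 0.21, neither of which passed.

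**Figure D3:**
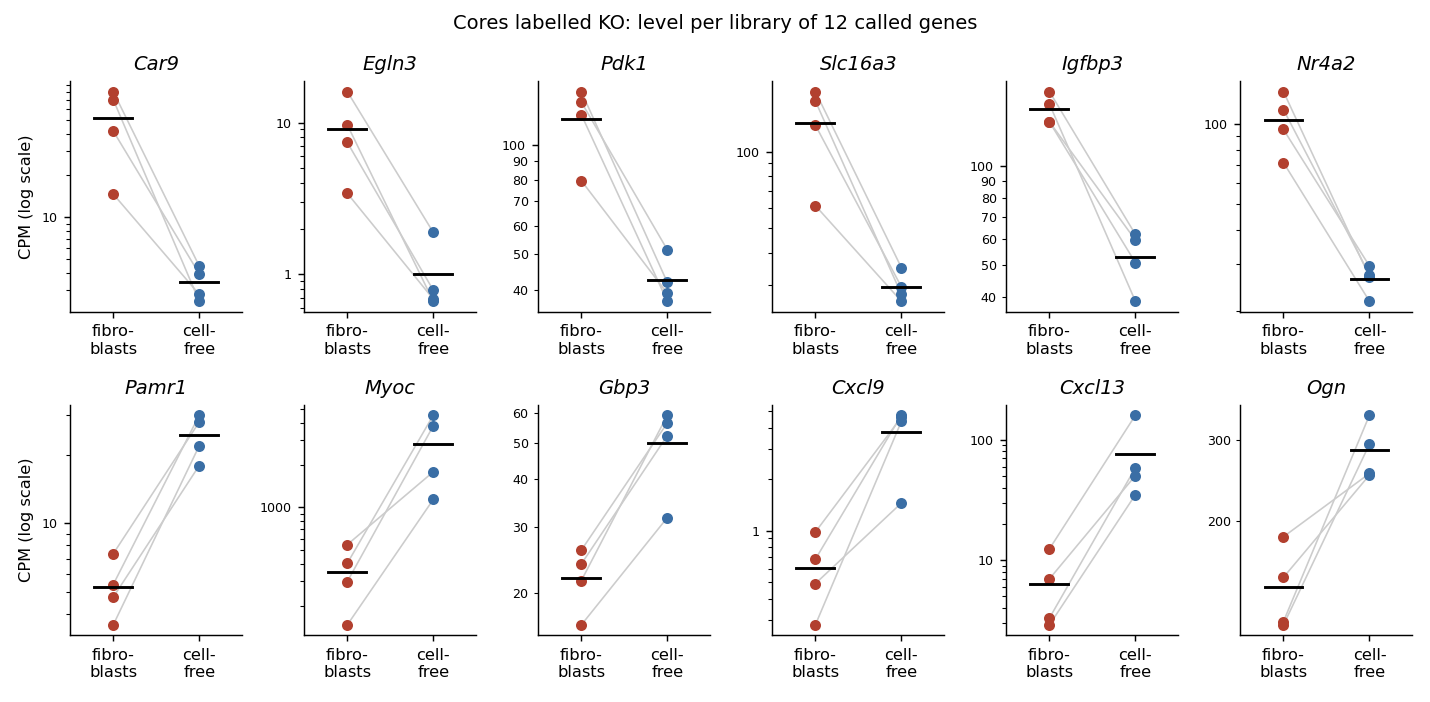
CPM (log axes) of 12 called genes in the 8 core libraries labelled KO, fibroblasts on the left and cell-free on the right of each panel, with lines joining libraries of the same replicate number and black bars for means. Every line falls to the right in the upper row, such as Car9 with 14.7 to 80.4 CPM against 2.49 to 4.46 CPM, and climbs to the right in the lower row, such as Myoc with 147 to 545 CPM against 1140 to 4510 CPM.

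Genes of glycolysis and lactate transport were higher as well. Of 20 tested members 20 had a positive fold change, 4 rose and the median log2 fold change was 0.82. With the replicate block 11 rose, beside 1.4% of all genes tested, and 0 to 7 did when 1 library was left out. Slc16a3, the lactate exporter MCT4, had 172, 158, 61.4 and 127 CPM with fibroblasts, against 35.1, 27.6, 25.9 and 29.5 CPM without (log2 fold change 2.13, SE 0.27, edgeR adjusted p = 0.0151). Pfkl, the liver-type phosphofructokinase, had 195, 208, 111 and 171 CPM against 61.1, 64.5, 47.2 and 44.4 CPM (1.65, SE 0.20, edgeR adjusted p = 0.0145). Ldha, lactate dehydrogenase A, was chosen after its values were seen: 630, 669, 395 and 728 CPM stood against 421, 211, 213 and 287 CPM, and the groups met at fibroblasts replicate 3 and cell-free replicate 1. Its log2 fold change was 1.10 (adjusted p 0.0879 without and 0.0174 with the block, edgeR). Pdk1 and Slc2a1 count in both the hypoxia and the glycolysis list.

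Of 75 nuclear genes of oxidative phosphorylation, 1 rose, none fell and the median was -0.12. The member that rose was Ndufa4l2, a mitochondrial protein induced under low oxygen, with 162, 206, 60.6 and 181 CPM against 29.4, 27.9, 11.3 and 14.5 CPM (log2 fold change 2.86, SE 0.42). Ndufa4, its relative in the respiratory chain, had a log2 fold change of -0.50 and did not pass (adjusted p = 0.566, edgeR). Further increased genes, chosen after their values were seen, were Mgarp, a mitochondrial protein gene with 1.52 to 4.68 CPM against 0.124 to 0.326 CPM (3.94, SE 0.42), the mitochondrial adenylate kinase gene Ak4 with 16.5 to 35.5 CPM against 5.30 to 11.3 CPM (1.74, SE 0.28), and the peptide hormone gene Apln with 45.8 to 112 CPM against 7.41 to 20.1 CPM (2.33, SE 0.38).

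Nr4a2 had 113, 95.2, 71.6 and 132 CPM with fibroblasts, against 27.3, 29.4, 21.7 and 26.8 CPM in cell-free cores (log2 fold change 1.96, SE 0.18, edgeR adjusted p = 0.00769). Of 26 immediate early genes tested it was the only one that rose, none fell and the median was 0.14. With the replicate block 4 rose, beside 1.4% of all genes tested. Igfbp3 had 136, 168, 136 and 154 CPM against 59.6, 62.0, 50.9 and 38.9 CPM (1.48, SE 0.16, edgeR adjusted p = 0.00769), with little spread in either group. Of 16 genes of the IGF system it was the only one to pass (2 did with the block), and the median of the list was 0.33. Nxph4, a neurexophilin, had 9.69, 8.02, 3.89 and 10.0 CPM against 0.912, 1.41, 0.833 and 0.994 CPM (2.92, SE 0.32). Trpm6 had 33.8 to 47.7 CPM against 11.8 to 17.5 CPM (1.45, SE 0.16), the potassium channel subunit gene Kcne4 44.1 to 79.5 CPM against 11.1 to 25.6 CPM (1.83, SE 0.26), and Uck2, a kinase of pyrimidine salvage, 148 to 206 CPM against 42.2 to 79.8 CPM (1.52, SE 0.20). Rerg, a Ras-like growth inhibitor, rose by 1.5 (SE 0.20) and the tetraspanin gene Tspan11 by 0.90 (SE 0.12).

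Cxcl14, a chemokine of stromal cells, had 548, 549, 239 and 462 CPM with fibroblasts, against 101, 133, 61.2 and 50.8 CPM in cell-free cores (log2 fold change 2.36, SE 0.35). Inhba, the activin A subunit, had 32, 65.2, 43.9 and 60.9 CPM against 16.6, 22.8, 21.6 and 20.1 CPM (1.31, SE 0.22). The coagulation factor V gene F5, chosen after its values were seen, had 2.41, 3.66, 2.50 and 3.09 CPM against 0.370, 0.522, 0.217 and 0.497 CPM (2.85, SE 0.29).

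Interferon genes leaned the other way. All 16 tested interferon-inducible GTPases had a negative fold change, 3 of them fell and the median log2 fold change was -0.89. Of 40 interferon-stimulated genes 40 were negative with a median of -0.92, and none passed without a block. With the replicate block 10 of the 16 and 24 of the 40 fell, beside 1.16% of all genes tested. In 7 and 23 members the groups did not overlap, beside 2.39% of all genes tested downwards. Leaving out 1 library gave 0 to 9 GTPases and 0 to 21 interferon-stimulated genes, with medians of -1.05 to -0.79 and -1.12 to -0.81. The median log2 CPM of the interferon-stimulated genes was 4.55, 3.91, 4.61 and 3.67 in replicates 1 to 4 with fibroblasts, against 5.19, 4.70, 5.39 and 5.25 in cell-free cores, and the differences within the replicate numbers were -0.64, -0.79, -0.78 and -1.58.

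Gbp3, a guanylate-binding protein of antimicrobial defence, had 23.9, 16.5, 26 and 21.6 CPM with fibroblasts, against 52.2, 31.7, 56.4 and 59.1 CPM without (log2 fold change -1.17, SE 0.20, edgeR adjusted p = 0.038). Cell-free replicate 2 was the lowest of its group and still above all fibroblast libraries. Gbp7 had 24.9, 22.8, 28.4 and 20.2 CPM against 47.3, 34.0, 42.2 and 47.2 CPM (-0.82, SE 0.13, edgeR adjusted p = 0.0355). Tgtp2, a T-cell-specific GTPase of low level, had 0.227, 0.134, 0.222 and 0.0468 CPM against 0.961, 0.683, 1.23 and 0.704 CPM (-2.40, SE 0.39). Irgm2, an immunity-related GTPase, was at 18.8 to 29.0 CPM against 31.6 to 50 CPM (-0.81), with an adjusted p of 0.0667 without and 0.0143 with the block (edgeR). The 4 interferon-stimulated genes of lowest p, the nucleic acid sensor gene Zbp1 with -1.05, Ifit2 with -1.14, Ifit3b with -1.47 and Rtp4 with -1.22, likewise missed the threshold without the block and passed with it. All 5 genes also passed with DESeq2, with the sex pattern as a block and without cell-free replicate 2. The PHD finger gene Phf11d fell by 1.20 on the log2 scale (SE 0.19). Near-identical copies exist for Tgtp2, Ifit3b and several guanylate-binding proteins, so that their counts may be split between copies.

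The promoters of the 3 decreased GTPases are shown because each holds a sequence of the interferon-stimulated response element type. Windows, build and source are as above, and capitals mark GAAA, any NN and GAAA read in a row, or TTTC, any NN and TTTC, which is the same on the other strand.
Gbp7 (chr3:142530086-142530385, plus strand): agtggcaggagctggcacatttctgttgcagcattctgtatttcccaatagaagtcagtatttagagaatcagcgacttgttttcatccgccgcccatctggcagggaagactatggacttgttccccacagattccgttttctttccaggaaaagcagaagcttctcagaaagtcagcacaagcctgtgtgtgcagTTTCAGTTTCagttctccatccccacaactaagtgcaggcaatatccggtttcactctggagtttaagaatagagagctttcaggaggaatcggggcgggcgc
Tgtp2 (chr11:49064163-49064462, minus strand): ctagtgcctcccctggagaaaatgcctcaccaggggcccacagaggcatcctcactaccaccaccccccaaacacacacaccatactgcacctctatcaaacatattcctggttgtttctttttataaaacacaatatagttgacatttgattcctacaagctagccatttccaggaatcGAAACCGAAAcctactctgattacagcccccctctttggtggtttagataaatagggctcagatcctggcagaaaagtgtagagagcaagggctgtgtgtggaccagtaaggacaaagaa
Gbp3 (chr3:142559794-142560093, plus strand): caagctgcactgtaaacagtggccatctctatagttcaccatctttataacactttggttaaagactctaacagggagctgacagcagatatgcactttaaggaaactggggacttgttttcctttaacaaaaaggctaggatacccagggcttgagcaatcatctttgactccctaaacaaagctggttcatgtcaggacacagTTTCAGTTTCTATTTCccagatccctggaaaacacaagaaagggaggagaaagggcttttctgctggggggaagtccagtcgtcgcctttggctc
Such a match was found in 3 of 17 decreased genes with a promoter (17.6%), which are the 3 GTPases shown. It was found in 8 of 9 GTPases (88.9%) and in 15 of 28 interferon-stimulated genes (53.6%), against 3.16% of all genes tested with a promoter. Both lists hold genes known for their induction by interferon, and a match is again a description of the sequence only.

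Pamr1 had 3.57, 4.73, 5.38 and 7.35 CPM with fibroblasts, against 22.0, 18.0, 30.0 and 28.0 CPM in cell-free cores (log2 fold change -2.23, SE 0.23, edgeR adjusted p = 0.00769). Myoc had 298, 147, 545 and 402 CPM against 3790, 1140, 1790 and 4510 CPM (-3, SE 0.50, edgeR adjusted p = 0.0382). All cell-free cores were above all cores with fibroblasts although they differed among themselves. Myocos, annotated opposite Myoc, had the same fold change of -3, and since the counting is not stated to use strand, the reads of the 2 genes cannot be told apart. Ogn, the small leucine-rich proteoglycan osteoglycin, had 121, 185, 119 and 151 CPM against 340, 254, 294 and 252 CPM (-0.98, SE 0.16). It was the only 1 of 34 proteoglycans and matricellular proteins to fall, and none rose. With the replicate block 5 fell and 2 rose, beside 1.16% and 1.4% of all genes tested. Acta2, smooth muscle actin, fell by 1.23 on the log2 scale (SE 0.22), with 8.19, 12, 10.1 and 12.3 CPM against 35.9, 16.6, 23.7 and 23.8 CPM.

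Cxcl13, which attracts B cells, had 12.4, 3.30, 6.99 and 2.90 CPM with fibroblasts, against 160, 58.6, 50.5 and 35.0 CPM without (log2 fold change -3.54, SE 0.57, edgeR adjusted p = 0.0355). Cxcl9, an interferon-induced ligand of CXCR3, had 0.680, 0.490, 0.981 and 0.281 CPM against 4.73, 1.45, 4.6 and 4.35 CPM (-2.58, SE 0.42). Ccl20, which attracts cells through CCR6, had 1.36 to 2.56 CPM against 4.26 to 7.37 CPM (-1.50, SE 0.24). Of 23 monocyte and lymphoid chemokine genes 1 rose (Cxcl14) and 2 fell (Cxcl13 and Cxcl9). With the replicate block 3 rose and 5 fell, beside 1.4% and 1.16% of all genes tested. The other decreased genes named by rule were Gprin3, a neurite outgrowth regulator (-0.74, SE 0.09), Ankrd55 (-1.29, SE 0.17), the fatty acid binding protein gene Fabp7 (-1.83, SE 0.25), Pdp1, the phosphatase that reactivates pyruvate dehydrogenase (-0.75, SE 0.11), and Ppfibp2, a liprin (-0.62, SE 0.10). Serpina3c, chosen after its values were seen, had 0.140 to 0.312 CPM against 1.53 to 6.93 CPM (-3.48, SE 0.60).

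A further 22 of the 69 genes passed the test. Among the 19 that rose, chosen for mention after their values were seen, were Sod3, the extracellular superoxide dismutase, with 160 to 315 CPM with fibroblasts against 94.2 to 121 CPM without (log2 fold change 1.18, SE 0.19), the heparan sulfate proteoglycan gene Sdc1 with 109 to 138 CPM against 68.4 to 84.4 CPM (0.69, SE 0.11), Gys1, muscle glycogen synthase, with 40.8 to 67.5 CPM against 21.6 to 28.6 CPM (1.18, SE 0.17), and Gpd2, the mitochondrial glycerol phosphate dehydrogenase, with 74.4 to 102 CPM against 50.5 to 66.1 CPM (0.67, SE 0.12). The potassium channel gene Kcnj15 had 62.4 to 111 CPM against 11.2 to 32.1 CPM (1.82, SE 0.31) and the neutral amino acid transporter gene Slc1a4 36.6 to 63.3 CPM against 18.4 to 28.5 CPM (1.06, SE 0.19). The remaining 13 were Nudt4, Ier5l, Pitpnc1, Medag, Plcb1, Sycp2, Amph, Ncam2, Rgs11, Pi15, Tmem229a and the gene models Gm49321 and Gm17087, with log2 fold changes from 0.56 for Nudt4 to 2.96 for Tmem229a. The 3 that fell were the serotonin transporter gene Slc6a4 with 0.267 to 0.453 CPM against 1.01 to 1.43 CPM (-1.82, SE 0.27), the glutamate receptor gene Gria1 with 0.255 to 0.538 CPM against 1.13 to 1.41 CPM (-1.81, SE 0.3), and Fam180a with 0.17 to 0.749 CPM against 1.57 to 4.27 CPM (-2.88, SE 0.45).

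**Figure D4:**
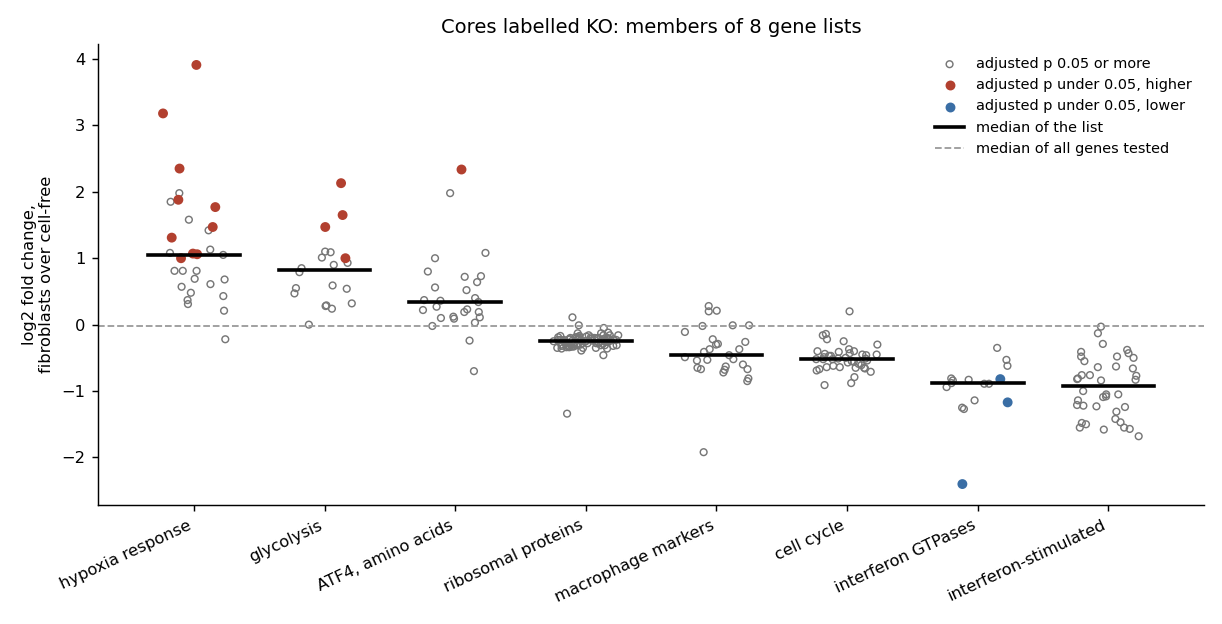
Log2 fold change (y axis, fibroblasts over cell-free) of every tested member of 8 gene lists in cores labelled KO. Filled points passed an adjusted p under 0.05, black bars are list medians and the dashed line is the median of all genes, with medians from 1.05 for hypoxia response to -0.92 for interferon-stimulated genes.

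Several lists leaned to one side with few or no members passing the test. Macrophage and myeloid markers were negative in 26 of 29 members, none passed and the median log2 fold change was -0.46. Their median log2 CPM was 8.02, 7.83, 7.70 and 7.52 with fibroblasts, against 8.88, 7.16, 7.85 and 7.90 in cell-free cores, so that replicate 2 ran the other way, and without cell-free replicate 1 the median of the list was -0.16. Marco, a scavenger receptor of macrophages, was at 64.3, 96.8, 130 and 40.5 CPM against 630, 133, 160 and 347 CPM (-1.92, edgeR adjusted p = 0.143). The part of macrophages in the lower interferon genes was not tested. For macrophage markers the differences of the median log2 CPM, fibroblasts minus cell-free, were -0.86, 0.67, -0.15 and -0.38 in replicates 1 to 4. For interferon-stimulated genes they were -0.64, -0.79, -0.78 and -1.58. Cell cycle genes were negative in 41 of 42 members with a median of -0.52. None passed, and 1 did with the block (Mcm5, a replication licensing factor), beside 1.16% of all genes tested that fell. Without cell-free replicate 2, 22 passed, in a fit that called 278 genes lower over all genes at the fold threshold. Their median log2 CPM in replicate 2 ran the other way, at 3.57 with fibroblasts against 3.49 without. Cytosolic ribosomal protein genes were negative in 83 of 84 members with a median of -0.24, and none passed. Within the replicate numbers the differences of their median log2 CPM were -0.84, 0.34, -0.14 and -0.1, and without cell-free replicate 1 the median fold change of the list was -0.03.

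Genes of ATF4 and amino acid synthesis had a median of 0.34, with 24 of 27 members positive. Only Ddit4 passed, and 5 did with the block, in which 1.4% of all genes tested rose and 1.16% fell. The median was 0.41 over STAT3 feedback and acute phase genes, with 26 of 31 positive, none passing and 6 passing with the block, among them the IL-4 receptor gene Il4ra at 0.99 (adjusted p 0.0544 without and 0.0143 with the block, edgeR). Socs3, the feedback inhibitor of IL-6 signalling, was at 169 to 206 CPM against 65.2 to 149 CPM (0.80, adjusted p 0.162 and 0.0658 in the same fits, edgeR). Of 18 ERK feedback genes 14 were positive, none passed without the block and 3 passed with it. In the osteoclast and RANKL axis 10 of 13 were positive with a median of 0.43, none passed and 4 did with the block, including Tnfsf11, which encodes RANKL, with 11.2, 25.1, 18.7 and 14.9 CPM against 7.15, 10.5, 6.96 and 8.78 CPM (1.06). Cholesterol and fatty acid synthesis genes were positive in 29 of 30 members with a median of 0.25, and 2 passed with the block.

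None of 11 fibrillar collagens passed (median 0.12), nor any of 17 matrix metalloproteinases (0.24) or 20 tendon lineage genes (0.06). With the replicate block no collagen passed, and 1 metalloproteinase rose (Mmp16) and 1 fell (Mmp11). Of the tendon lineage genes Itga7 and Mcam rose and Chad and Col14a1 fell in that fit. Over all genes tested 1.4% rose and 1.16% fell with the block. Col3a1 was at 10700, 12200, 5720 and 8690 CPM with fibroblasts, against 7860, 5870, 4770 and 4390 CPM without (log2 fold change 0.70, SE 0.30, edgeR adjusted p = 0.395), and Col1a1 at 11500, 7770, 4640 and 6050 CPM against 5140, 7340, 5600 and 7310 CPM (0.22, SE 0.30). The groups overlapped in both genes. The collagenase gene Mmp13 was at 2900 to 3990 CPM against 2640 to 3830 CPM (0.08, SE 0.19), the stromelysin gene Mmp3 at 16000 to 34700 CPM against 9460 to 17200 CPM (0.76, SE 0.35) and the gelatinase gene Mmp9 at 40.1 to 167 CPM against 29.7 to 54.6 CPM (1.36, SE 0.41, edgeR adjusted p = 0.204). The tendon transcription factor Scx was at 13.7 to 20.5 CPM against 8.91 to 18.9 CPM (0.29, SE 0.21) and Sox9 at 4.73 to 7.91 CPM against 3.36 to 4.6 CPM (0.69, SE 0.19), where the groups did not overlap but the adjusted p was 0.161 in edgeR. Of 26 collagen modifying enzymes only P4ha2 passed, and with the block 4 rose and 1 fell, including the lysyl hydroxylase gene Plod1 at 0.89 and the proteinase enhancer gene Pcolce2 at -1.13. Prg4, the lubricating proteoglycan of gliding surfaces, was at 2440, 1580, 1520 and 3090 CPM against 1170, 848, 756 and 1270 CPM (1.09) and Fn1, fibronectin, at 18500, 9970, 9310 and 16800 CPM against 6530, 6260, 7160 and 6140 CPM (1.06). Prg4 passed with the block (adjusted p 0.112 without and 0.0141 with it, edgeR) and Fn1 did not (0.154 and 0.112).

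The same contrast in WT cores (Il-6+/+, 4 libraries a group) shares no library with the cores labelled KO. There, 244 genes rose (1.51%) and 179 fell (1.11%) of 16188 tested. Leaving out 1 WT library gave 41 to 380 that rose and 8 to 260 that fell, the lowest without fibroblasts replicate 1 and the highest without cell-free replicate 4. Of the 48 genes that rose in cores labelled KO, 47 were tested in WT cores, 46 were positive and 25 rose, which is 52.1% of the KO list and 10.2% of the WT list. Their median log2 fold change was 1.54 in cores labelled KO and 0.97 in WT cores. Of the 21 that fell, 20 were negative in WT cores and 5 fell, 23.8% of the KO list and 2.79% of the WT list. Their medians were -1.81 in cores labelled KO and -0.56 in WT cores. The 48 and 21 genes were picked by low p in cores labelled KO, which favours large fold changes there. Their medians therefore cannot show whether cores labelled KO responded more strongly than WT cores. In the hypoxia list 18 of 30 members rose in WT cores by adjusted p alone (2.46% of all genes there) with a median of 0.87, and 16 of 40 interferon-stimulated genes fell (1.83% of all genes) with a median of -0.54. Car9 had a mean of 51.8 ± 29.6 CPM with fibroblasts and 3.41 ± 0.931 CPM without in cores labelled KO, and 14.1 ± 5.94 CPM and 3.54 ± 0.68 CPM in WT cores (SD, n = 4 each).

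Whether the fibroblast effect differed between cores labelled KO and WT cores was tested for each gene. The interaction test of edgeR over 16772 genes called 0 (lowest adjusted p 0.985), with 504 genes at an unadjusted p under 0.05 (3.01%). DESeq2 called 1 (0.004%), Nxpe5, at an adjusted p of 0.0168. Neither fit had the replicate number as a block, so differences may have been missed and the few calls do not show equal responses. The 5 named genes of lowest unadjusted p were Nxpe5, Cxcl13, Vstm4, Tgfb2 and Gpr146, with differences (KO minus WT) of 2.29, -3.79, -0.74, -0.51 and 0.80. Cxcl13 averaged 6.40 ± 4.40 CPM with fibroblasts and 76.0 ± 56.8 CPM without in cores labelled KO, and 12.7 ± 10.4 CPM and 10.5 ± 4.77 CPM in WT cores (SD, n = 4 each). The cell-free mean was higher in cores labelled KO than in WT cores, and the difference of the effects had an edgeR adjusted p of 0.985. For Car9 the difference was 1.93 and for Mmp13 -0.81, with the same adjusted p of 0.985, so neither was shown to respond differently.

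**Figure D5:**
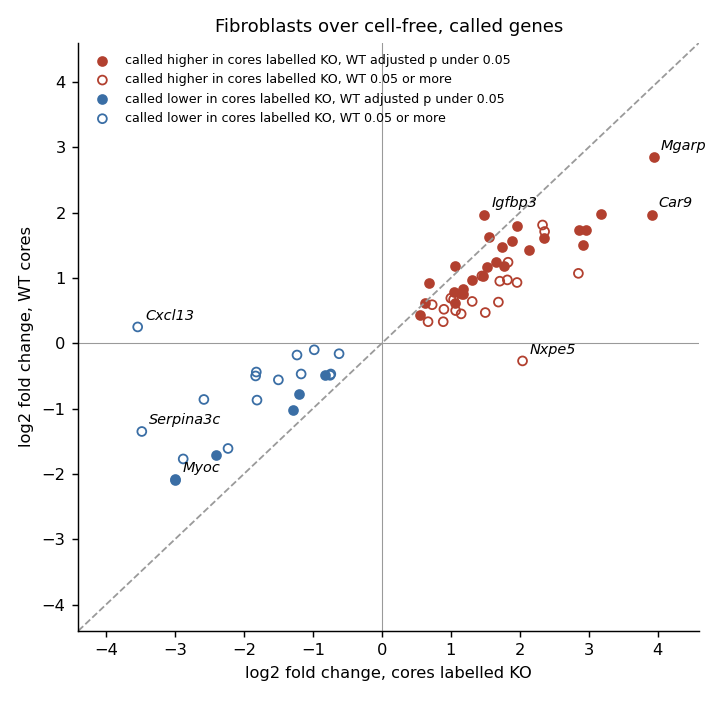
Log2 fold change, fibroblasts over cell-free, in cores labelled KO (x axis) and in WT cores (y axis) for the called genes tested in both, with the dashed line of equality. Filled points had an adjusted p under 0.05 in WT cores. Cxcl13 (-3.54 and 0.25) and Nxpe5 (2.04 and -0.27) lie on opposite sides of 0. The genes were picked by low p in cores labelled KO, so distance from the line does not show a stronger response there.

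How these genes stand in the fibroblast-laden hydrogel is a further description. Between WT hydrogels (6) and WT cell-free cores (4), which share no library with the cores labelled KO, 3084 of 16072 genes were higher in the hydrogel (19.2%) and 4023 lower (25%). Among the 48 increased genes 30 of 47 tested were higher in the hydrogel (63.8%), and among the 21 decreased genes 7 of 20 were lower (35%). In hydrogels around cores labelled KO, Car9 averaged 46.2 ± 39.5 CPM, Igfbp3 174 ± 68.9 CPM and F5 43.4 ± 14.5 CPM (SD, n = 6). Trpm6 averaged 11.9 ± 1.63 CPM in these hydrogels (SD, n = 6) and 39.4 ± 5.88 CPM in the cores with fibroblasts (SD, n = 4). Rerg averaged 6.01 ± 1.39 CPM and 38.9 ± 12.1 CPM in the same libraries. Acta2 was at 97.8 ± 45.2 CPM in the hydrogels (SD, n = 6), 10.6 ± 1.91 CPM in cores with fibroblasts and 25 ± 8.01 CPM in cell-free cores (SD, n = 4 each). The part of hydrogel RNA in the core libraries was not tested. In the female-pattern cores, replicates 1 and 3, Car9 stood at 41.8 and 14.7 CPM with fibroblasts against 3.92 and 2.79 CPM without. The Y-linked sum in these cores was 0.517 and 3.62 CPM with fibroblasts, against 1.19 and 1.16 CPM without. By the title codes, their hydrogels were hydrogel replicates 2 and 4, at 15.8 and 45.9 CPM, the lowest of the 6. With so little Y-linked RNA in those hydrogels, the sum cannot show how much hydrogel RNA these cores held.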

How the data were processed

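RNA of cores and hydrogels was sequenced after ribosomal RNA removal. The deposited values are estimated counts per gene that the authors made with kallisto 0.46.1 against GRCm39, written as whole numbers for 25700 Ensembl genes. No source used here names the annotation release. Symbols (25587 genes) came from a GRCm38 annotation used for names only. The libraries were stranded, but no source used here says whether the counting used strand.

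Counts of the 8 libraries were filtered (filterByExpr), scaled by TMM and tested across all genes with the quasi-likelihood test of edgeR 4.0.16 (R 4.3.3), with Benjamini-Hochberg adjustment. A gene was called at an adjusted p under 0.05 and a log2 fold change beyond 0.5, and SE is the fold change over the root of F. WT cores were fitted alike and the KO minus WT difference as an interaction, in the main fit without a block. CPM are TMM-scaled over all 32 libraries, with a prior count of 2 for log2 CPM. Single genes were tested by exact permutation over the 70 arrangements of 4 against 4, which left out the pairing by number. DESeq2 1.42.0 was an alternative. Only the edgeR fit of the 8 libraries without a block was tested on simulated data.

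Named genes were the 15 of lowest p in each direction with a mean log2 CPM of at least 1, Il6, the genes the study names for cores, up to 4 of lowest p in each list described and 5 of the interaction, leaving out unnamed gene models, pseudogenes and Y-linked genes. Of the genes so chosen, 1 is not reported here. Other genes are marked in the text as chosen after their values were seen. Members and the 59 gene lists were chosen with earlier results of these data known. Same-numbered samples deviated together, with correlations of their deviations of 0.27, 0.2, 0.35 and 0.39 for numbers 1 to 4, each over 0.1 and above that with any other number (at most 0.1), so the numbers pair the samples. The number also separates run codes 150 (number 1), 152 (numbers 2 and 3) and 154 (number 4) of the titles. No 2 of the 8 libraries were identical. That libraries of the same group came from different mice rests on the study's methods. The methods do not say whether same-numbered libraries of the 2 groups shared a mouse. The p-values measure the spread between these libraries. The 8 libraries held 21.4 to 41.9 M counts, so genes under 1 CPM are measured least precisely.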

Additional observations from a re-analysis of the deposited data

Results flagged for a closer look

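Among 131 named genes in the 2 groups of cores labelled KO, 262 sets of 4 values were examined for a library far from its 3 neighbours, and 11 were found where chance gives 13.1. With fibroblasts, Rerg was high in replicate 4 at 57 CPM (nearest 33.6 CPM), Ecm2 high in replicate 4 at 25.6 CPM (nearest 18.9 CPM), Apln high in replicate 2 at 112 CPM (nearest 48.9 CPM) and Slc6a4 high in replicate 1 at 0.453 CPM (nearest 0.285 CPM).

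In cell-free cores, replicate 1 was high for Fabp7 at 6.9 CPM (nearest 4.23 CPM) and for Serpina3c at 6.93 CPM (nearest 1.62 CPM). Replicate 2 was low for Cxcl9 at 1.45 CPM (nearest 4.35 CPM) and high for Mcam at 1.97 CPM (nearest 1.45 CPM) and Egln3 at 1.89 CPM (nearest 0.787 CPM). Replicate 4 was high for Il6 at 20.2 CPM (nearest 8.32 CPM) and low for Ocstamp at 0.166 CPM (nearest 0.789 CPM).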

How the results depend on the processing

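The count of genes that rose was 278 with DESeq2, 98 without a filter, 501 at an unadjusted p under 0.05, 223 with the replicate block, 149 with the run code as a block, 104 with the sex pattern as a block and 198 with all 5 core groups in 1 fit. The count that fell was 222, 42, 639, 185, 97, 66 and 130 in the same order. The causes were not tested. Leaving out 1 library gave 3 to 219 that rose and 1 to 278 that fell, and in WT cores 41 to 380 and 8 to 260. In the paired fit, leaving out 1 pair, an alternative chosen after seeing the data, gave 59 to 369 and 40 to 442. All 48 and 21 genes remained with the replicate block, DESeq2, RLE factors, the run or sex block and no filter, 48 and 17 with all 5 core groups in 1 fit, and 39 and 15 with at least 10 counts in every library. DESeq2 called 1 gene for the KO minus WT difference. Of 131 named genes under their alternatives (2346 values), 1848 kept direction and call, 229 lost and 266 gained the call and 3 turned direction. Those were Col1a1 at -0.05 without fibroblasts replicate 1 (range -0.05 to 0.39 over left-out libraries) and Mmp13 at -0.01 without fibroblasts replicate 4 and -0.01 without cell-free replicate 4 (range -0.01 to 0.17). Of 1104 list values 190 moved.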
